A study of Mus musculus with 2 samples.

Results

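The genes described are 42 chromatin-modifying enzymes and co-regulators, of 55536 annotated genes in the tables. They were matched by name in the GENCODE M21 annotation, and the list was drawn up with earlier results of these data known. They are 13 histone demethylases or their relatives, 4 subunits of Polycomb repressive complex 2 (PRC2) and 9 other genes of the methyltransferase families. The others are 2 acetyltransferases, 6 deacetylases with the co-repressor Ncor1, 2 bromodomain (BET) readers, 2 TET dioxygenases and 3 remodelling subunits.

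The cells were primary macrophages grown from the bone marrow of C57BL/6J mice and given Lipid A, the part of lipopolysaccharide that engages TLR4, at 100 ng/ml for 40 min. RNA of the nucleoplasmic fraction, the soluble part of the nucleus, was sequenced after ribosomal RNA had been depleted. There was 1 group of 2 biological replicates, which carry the same donor identifier. Nothing in the labels says that they came from separate animals. Replicate 1 started from 1 µg of RNA and replicate 2 from 500 ng, and these differences cannot be told apart. Untreated cells and other fractions were not analysed here, so every value is a level and none is a response to Lipid A.

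Histone tails carry methyl and acetyl groups that are added by writer enzymes, removed by erasers and bound by reader proteins. TET enzymes oxidise methylated cytosine in DNA, and remodellers use ATP to move or evict nucleosomes. In macrophages such enzymes act at the promoters and enhancers of inflammatory genes, where Kdm6b, Tet2, Hdac3 with Ncor1, and the BET readers have been studied most. Nuclear RNA also holds transcripts whose introns have not yet been removed or are retained. The annotation lists many such transcripts as models of the class retained_intron, often short and often covering only part of an intron.

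The libraries held 19630046 and 18434601 expected counts, and the chromatin genes took 134798 and 145958 of them. All 10 macrophage markers listed were detected, with mean levels of 20.4 to 1542 TPM (transcript abundance per length, scaled to the same total in each library). Of 35 markers of other blood, stromal and vessel cells, 2 were detected: Kdr at 3.78 and 2.11 TPM and Gp9 at 1.24 and 1.02 TPM. The T cell marker Cd3d was at 0.07 and 0.1 TPM in the alignment-based tables used here. In the authors' FASTQ-derived tables it was at 2.38 and 4.28 TPM. The 35 summed to 12.7 and 6.67 TPM against 4230 and 2838 TPM for the macrophage list. Of these 35, 12 were at 0 in both libraries, all 3 NK cell markers among them.

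The sequences that follow show what a retained-intron model is, for the 5 genes in which such models held over 50% of the level in both replicates. For each gene, retained-intron models with a border to coding sequence were ranked by their share of the gene's TPM, summed over both replicates. The highest was taken, at its edge with the intron. The first line of each pair is that model, with the intron in capitals and the exon in lower case, and the second is the same place in a spliced coding model. Both are written 5′ to 3′ from the GENCODE M21 transcripts, with positions on mm10 for the unspliced window.

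In Hdac1, which encodes a class I deacetylase, the window is the 5′ border of intron 13 of 13, at chr4:129516876-129516923 on the minus strand. The model held all 263 nt of that intron.
Hdac1-206: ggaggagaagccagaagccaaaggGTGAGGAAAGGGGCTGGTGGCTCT
Hdac1-201: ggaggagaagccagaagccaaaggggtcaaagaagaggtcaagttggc

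In Brd2, a BET reader of acetylated histones, it is the 5′ border of intron 11 of 12, at chr17:34113153-34113200 on the minus strand. All 198 nt of the intron were in the model.
Brd2-204: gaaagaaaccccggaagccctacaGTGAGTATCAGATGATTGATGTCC
Brd2-201: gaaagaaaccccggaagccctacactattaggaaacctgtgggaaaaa

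In Jmjd1c, a relative of the H3K9 demethylases, it is the 5′ border of intron 4 of 25, at chr10:67215352-67215399 on the plus strand. The model held 49.5% of the 1607 nt of this intron.
Jmjd1c-205: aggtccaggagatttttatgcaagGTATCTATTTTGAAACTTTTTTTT
Jmjd1c-211: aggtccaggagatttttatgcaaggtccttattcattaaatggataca

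In Eed, the PRC2 subunit that binds trimethylated H3K27, it is the 3′ border of intron 8 of 11, at chr7:89962338-89962385 on the minus strand. Only 19.7% of this intron of 2367 nt was in the model.
Eed-206: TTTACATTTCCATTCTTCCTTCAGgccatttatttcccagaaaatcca
Eed-201: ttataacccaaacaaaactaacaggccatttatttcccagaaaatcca

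In Kdm1a, the flavin-dependent demethylase of H3K4, it is the 3′ border of intron 17 of 19, at chr4:136552565-136552612 on the minus strand. The model held 48.4% of the 1207 nt of this intron.
Kdm1a-205: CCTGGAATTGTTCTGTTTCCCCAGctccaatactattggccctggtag
Kdm1a-202: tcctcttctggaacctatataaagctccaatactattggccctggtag

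The intron began with GT at each 5′ border and ended with AG at each 3′ border. The exon side was the same in both models of a pair, so a read inside the exon fits either one. Only reads that reach the capitals, or that cross the splice junction, tell them apart.

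Nearly all of the chromatin genes were present in the nucleoplasmic fraction, and most were above the middle of the protein-coding genes. With detection set at 1 TPM or more in both replicates, 41 of the 42 were detected, against 40.0% of the 22028 protein-coding genes. At 5 TPM or more in both replicates there were 37 of 42, against 22.3% of protein-coding genes. At 10 TPM or more there were 28, against 35.8% of the 8810 detected protein-coding genes. The median chromatin gene had 20.1 TPM in replicate 1 and 15.4 TPM in replicate 2 (17.7 ± 3.33, SD, n = 2). Over detected protein-coding genes the median was 8.64 and 6.12 TPM (7.38 ± 1.78), below the chromatin genes in both replicates. Together the 42 genes summed to 1525 and 1212 TPM, which was 0.489% and 0.537% of all protein-coding TPM. Low TPM in replicate 2 was general: 40 of the 42, and 91.8% of detected protein-coding genes, had less TPM there. TPM levels were therefore compared between genes within a replicate, and counts scaled by library were used between replicates.

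**Figure D1:**
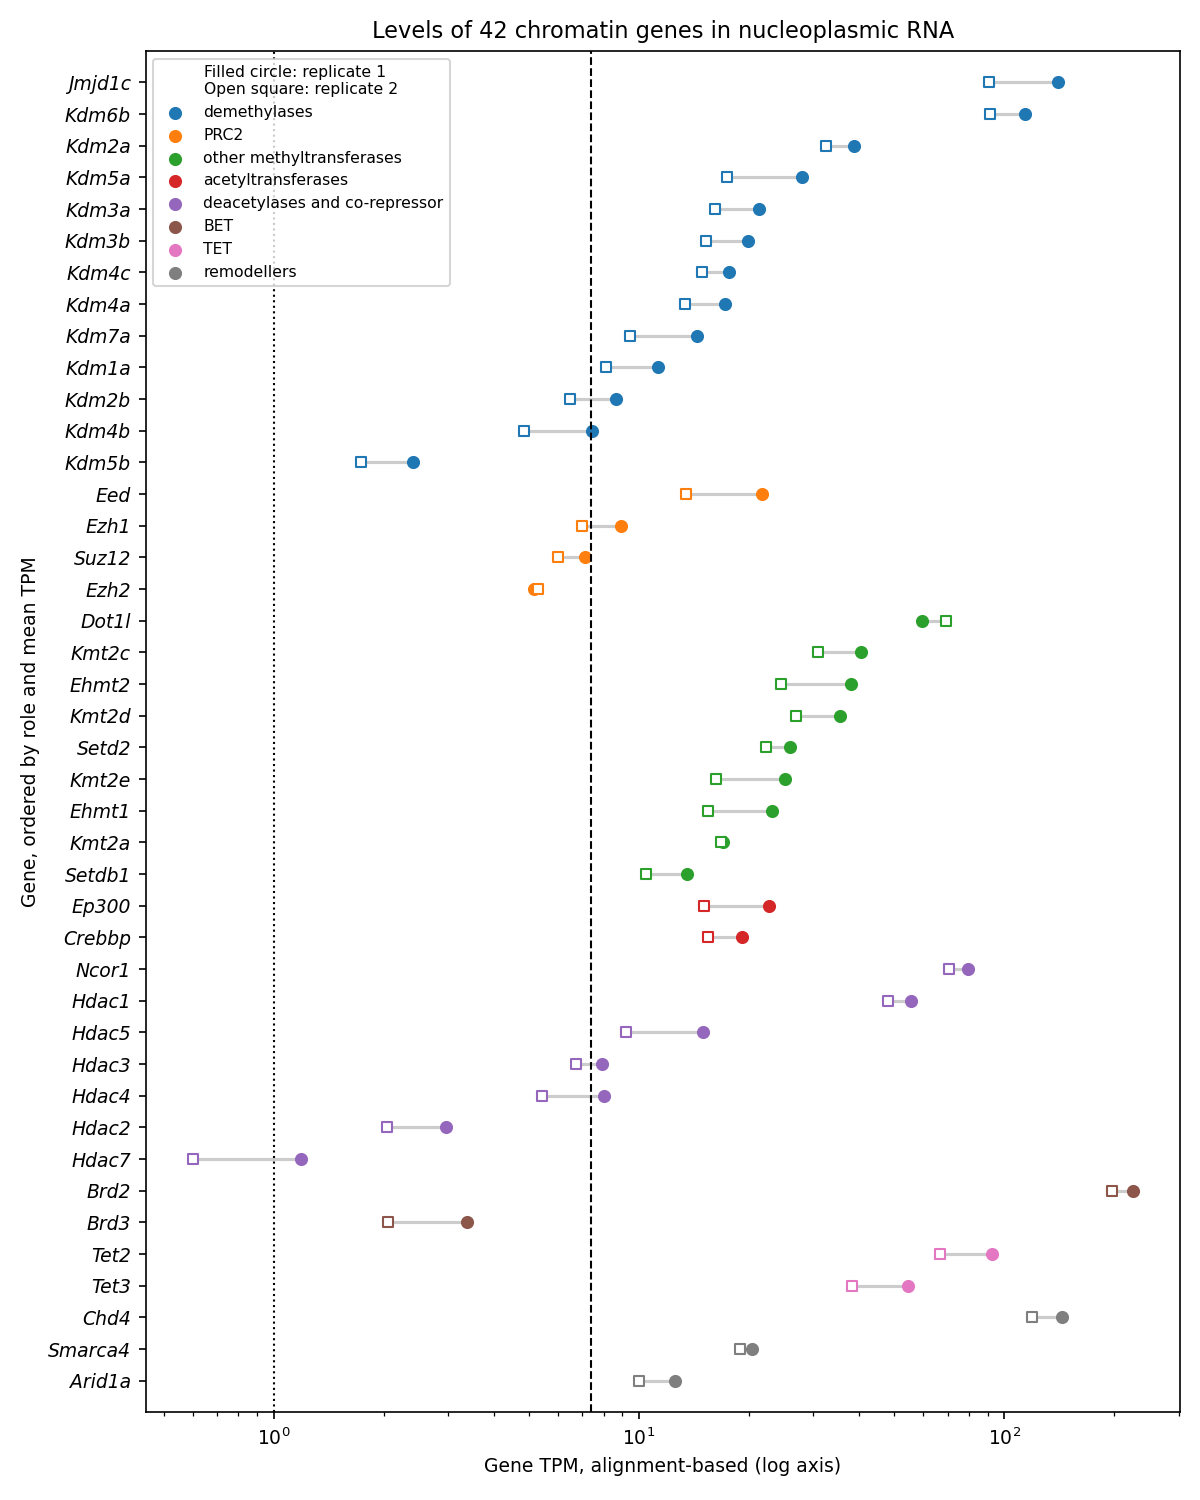
Gene TPM (log axis) of the 42 chromatin genes, ordered by role; filled circles are replicate 1, open squares are replicate 2, the dashed line is the median detected protein-coding gene (7.38 TPM) and the dotted line is the detection threshold of 1 TPM. Brd2 lies farthest right, at 225 and 197 TPM, and Hdac7 is the gene with a point left of the threshold.

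Each of the 13 demethylases and relatives was detected, and their median was 17.6 TPM in replicate 1 and 14.9 TPM in replicate 2. Jmjd1c (chr10:67096125-67256326) was at 140 and 90.5 TPM. Kdm6b (chr11:69398508-69413675), the H3K27 demethylase also called Jmjd3, which lipopolysaccharide is known to induce in macrophages, was at 114 and 91.4 TPM. Both lay far above the rest of the group, and their order swapped between replicates. Kdm2a, an H3K36 demethylase, followed at 38.8 and 32.4 TPM. Its relative Kdm2b, a subunit of a Polycomb repressive complex 1 variant, was at 8.65 and 6.46 TPM. The H3K4 demethylase Kdm5a was at 27.9 and 17.4 TPM and its relative Kdm5b at 2.41 and 1.73 TPM, the lowest level in the group.

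Among the H3K9 demethylases, Kdm3a was at 21.3 and 16.2 TPM and Kdm3b at 19.8 and 15.3 TPM. Their values nearly coincided in each replicate. Of the KDM4 enzymes, which act on H3K9 and H3K36, Kdm4a was at 17.2 and 13.4 TPM and Kdm4c at 17.6 and 14.9 TPM. Kdm4b was lower, at 7.46 and 4.86 TPM. Its level was poorly fixed in replicate 1, where the authors' credibility interval ran from 6.62 to 81.8 TPM. Kdm7a, which acts on H3K9 and H3K27, was at 14.4 and 9.47 TPM. Kdm1a was at 11.3 and 8.11 TPM.

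PRC2 methylates H3K27 and was the role group with the lowest median, 8.01 and 6.50 TPM, although all 4 subunits were detected. The deacetylases with Ncor1 were almost level with it, with a median of 8.04 and 6.71 TPM. Eed led PRC2 with 21.8 and 13.4 TPM over all models. In coding models Eed had 7.77 and 4.53 TPM and Ezh1 had 7.47 and 5.75 TPM, so their order swapped between replicates. Over all models the catalytic subunit Ezh1 was at 8.91 and 6.99 TPM. Its counterpart Ezh2, typical of dividing cells, was at 5.15 and 5.30 TPM. Ezh1 was above Ezh2 in both replicates, on 640 and 651 expected counts for Ezh1 and 184 and 206 for Ezh2. Suz12, the scaffold of the complex, was at 7.10 and 6.00 TPM.

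The 9 other methyltransferase genes had a median of 25.9 and 22.2 TPM, above that of the demethylases in both replicates. Dot1l (chr10:80755206-80795461), which methylates H3K79, led at 59.4 and 69.4 TPM. It was 1 of the 2 chromatin genes with more TPM in replicate 2, the other being Ezh2. The enhancer H3K4 methyltransferases Kmt2c and Kmt2d were at 40.5 and 30.9 TPM and at 35.4 and 27.0 TPM. Ehmt2, the H3K9 methyltransferase G9a, was at 38.1 and 24.6 TPM and its partner Ehmt1 at 23.1 and 15.5 TPM. Ehmt2 exceeded Ehmt1 in both replicates. Setd2, which trimethylates H3K36, had 25.9 and 22.2 TPM, and Kmt2e, a family member with no established methyltransferase activity, had 25.1 and 16.2 TPM. Kmt2a (MLL1) had 17.0 and 16.8 TPM, and Setdb1, an H3K9 methyltransferase that silences repeats, had 13.6 and 10.4 TPM.

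The acetyltransferases Crebbp (CBP) and Ep300 (p300), which acetylate histones at enhancers, were close to each other. Crebbp was at 19.2 and 15.5 TPM and Ep300 at 22.7 and 15.1 TPM, with Ep300 higher in replicate 1 and Crebbp higher in replicate 2.

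The deacetylases ranged widely. Hdac1 (chr4:129516104-129542713) was at 55.4 and 48.1 TPM, and its class I relative Hdac2 at 2.97 and 2.04 TPM. Both act in the Sin3, NuRD and CoREST complexes. Hdac3, which works with Ncor1, had 7.93 and 6.71 TPM. Ncor1 (chr11:62316426-62458541), the nuclear receptor co-repressor, was at 79.7 and 70.7 TPM, far above Hdac3 in both replicates. Of the class IIa deacetylases, which shuttle between nucleus and cytoplasm, Hdac5 had 14.96 and 9.23 TPM and Hdac4 had 8.04 and 5.44 TPM. Hdac7 (chr15:97792664-97844502), of the same class, was the 1 chromatin gene not detected, with 1.19 and 0.60 TPM from 77 and 62 expected counts. Its first replicate was above the threshold and its second below it, and the credibility interval of the second, 0.637 to 1.38 TPM, spanned the threshold and lay above its TPM.

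Brd2 (chr17:34112023-34122634) had the highest level of the 42, at 225 and 197 TPM, above 98.3% of detected protein-coding genes. Its relative Brd3 was near the bottom with 3.38 and 2.06 TPM. The TET enzymes Tet2 (chr3:133463679-133545139) and Tet3 (chr6:83362373-83459084) were both high. Tet2 was at 92.3 and 66.6 TPM and Tet3 at 54.5 and 38.3 TPM. Among the remodelling subunits Chd4 (chr6:125095981-125130591), the ATPase of the NuRD complex, led with 144 and 119 TPM. Smarca4 (BRG1), the ATPase of SWI/SNF complexes, had 20.3 and 18.9 TPM, and Arid1a, a DNA-binding subunit of the same complexes, had 12.57 and 10.03 TPM.

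Most neighbours in the order of levels did not differ by more than their spread. A difference was taken as larger than the spread where the mean log2 ratio over both replicates was more than 2 SD and both replicates had its sign. Of 41 neighbouring pairs in the order of mean TPM, 10 met this. An SD from 2 values is imprecise, so pairs without a true difference can meet the rule. Ehmt1 over Ep300 met it at only 0.028 ± 0.011. Brd2 was above Chd4 by 0.68 ± 0.06 on the log2(TPM + 1) scale, Kdm6b above Tet2 by 0.38 ± 0.11, and Tet3 above Kmt2c by 0.36 ± 0.08. Chd4, Jmjd1c and Kdm6b did not separate from their neighbours among themselves, nor did Tet2, Ncor1, Dot1l, Hdac1 and Tet3.

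A large part of the level of these genes, by TPM, was assigned to models that keep an intron. The 42 genes had 403 transcript models: 184 protein_coding, 126 retained_intron, 56 processed_transcript (non-coding with no further class) and 37 nonsense_mediated_decay (with an early stop codon). Retained-intron models took 34.8% of the summed TPM in replicate 1 and 32.0% in replicate 2 (33.4% ± 1.99, SD, n = 2). Coding models took 56.7% ± 1.91, processed transcripts 5.54% ± 0.29 and nonsense-mediated decay models 4.41% ± 0.37. Over all detected protein-coding genes the retained-intron share was 19.9% ± 0.74. Of the 42, 32 had such a model at all, against 65.1% of detected protein-coding genes. Among genes with such a model, the shares were 40.1% of TPM for the chromatin genes and 35.1% ± 0.75 for all. Brd2 weighed heavily in the sums of the chromatin genes. Without it, a setting chosen after seeing the data, the share over all of them fell from 33.4% to 28.1%. That setting covers genes without such a model too, so 28.1% cannot be set beside 35.1%. The gap between 40.1% and 35.1% may rest wholly on this 1 gene and is not read as a trait of the group. The median chromatin gene with such a model had 31.60% and 27.99% of its TPM in them, and the median of all such genes was 26.6% and 25.2%.

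These shares were much lower by counts. The median length of the retained-intron models was 824.5 nt, against 3890.5 nt for the coding models of the same genes, and TPM is per length. By expected counts retained-intron models held 10.9% ± 1.33 and coding models held 84.8% ± 1.16. The models also differed in how much of their sequence is intron. A median of 36.4% of their bases lay outside the coding models' exons. In 26 of the 126 it was under 20%, and in 47 it was over 50%. By position, 81.9% and 84.5% of the retained-intron TPM was in models centred past the midpoint of their gene, towards its 3′ end. For coding models, many of which span the gene and centre near its midpoint, it was 44.4% and 45.1%. These shares are weighted by TPM, so high models such as Hdac1-206, at 35.0 and 31.0 TPM, weigh most. No such share over all protein-coding genes is given here.

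In 5 genes retained-intron models held over 50% of TPM in both replicates, of the 31 detected chromatin genes with such a model. The same was true of 12.6% of the 5736 detected protein-coding genes with such a model. Hdac1 had 78.0% and 77.0%, Eed 64.3% and 66.3%, and Kdm1a 58.7% and 66.0%. Brd2 had 61.3% and 62.7%, and Jmjd1c had 64.7% and 58.2%. By FASTQ-derived TPM, 4 detected genes were over this limit in both replicates: Hdac1, Eed, Brd2 and Jmjd1c. By expected counts 1 was, Hdac1, at 54.8% and 52.7%. Kdm1a was under it by the FASTQ-derived table of replicate 1, at 44.4%.

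**Figure D2:**
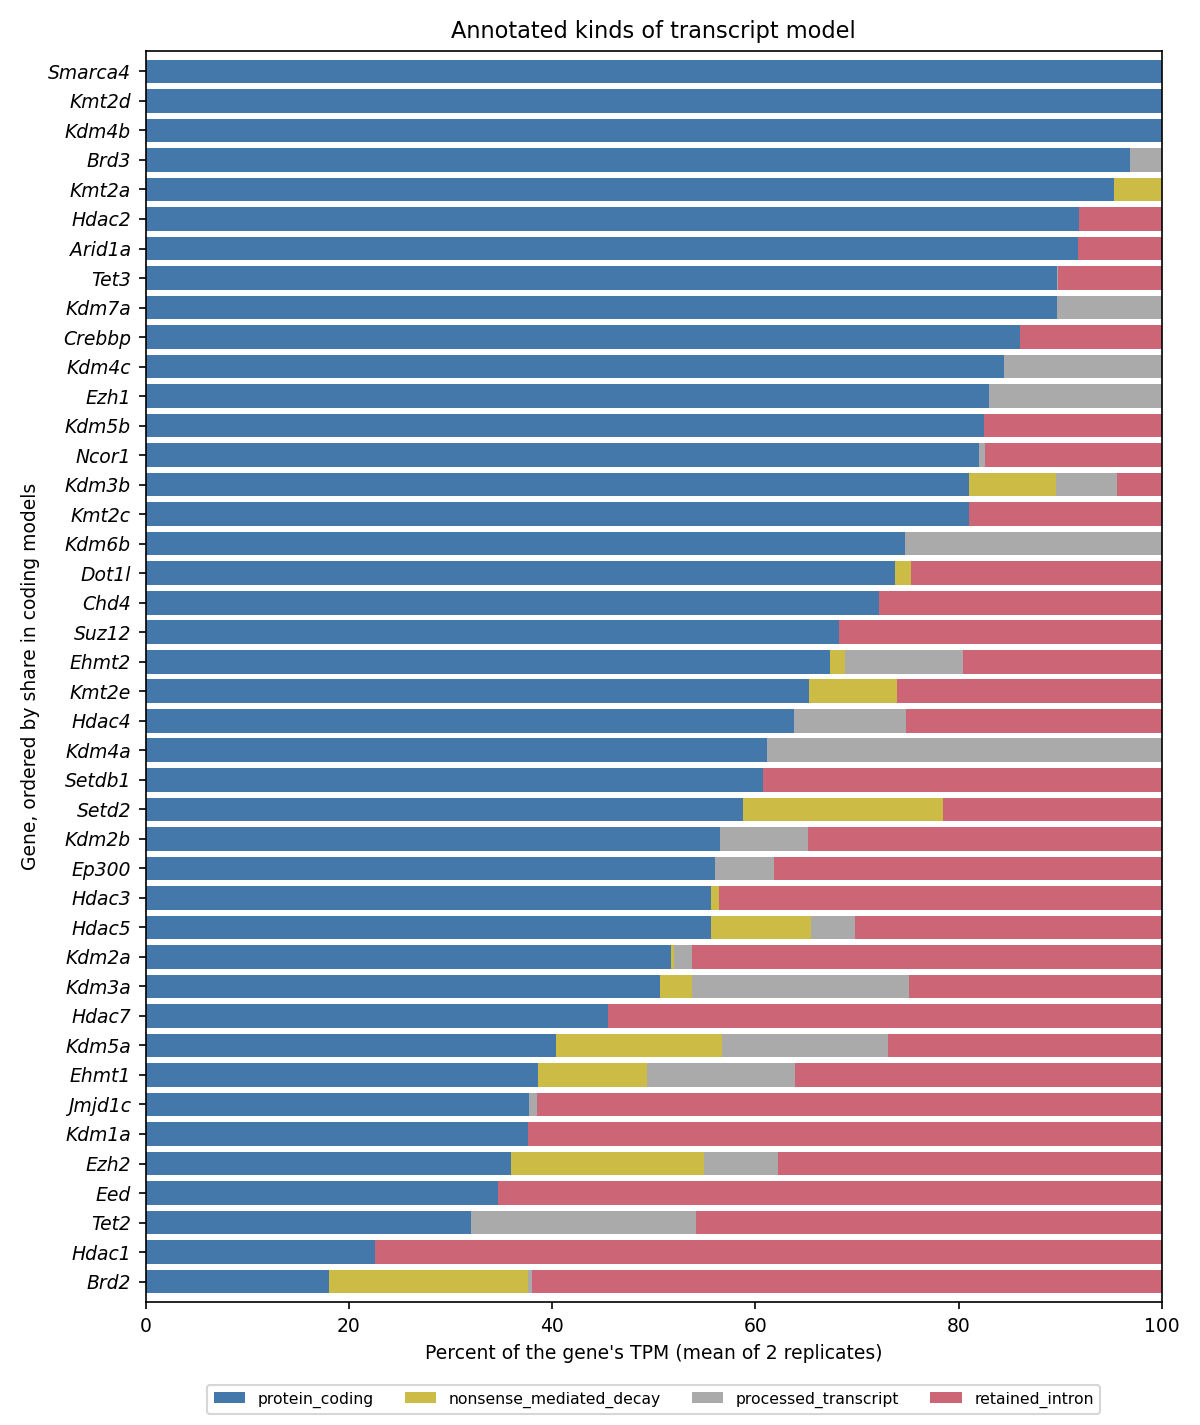
Share of each gene's TPM (percent, mean of 2 replicates) in the 4 annotated classes of transcript model, with genes ordered by the share in coding models. Brd2 and Hdac1 at the foot have the smallest coding share, 18.1% and 22.5%, while Smarca4, Kmt2d and Kdm4b at the top have 100%.

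Hdac1 shows how a short model sets a gene's TPM. The model Hdac1-206, whose border is printed above, is 844 nt long and was at 35.0 and 31.0 TPM, or 63.2% and 64.5% of the gene. The coding model Hdac1-201, of 2038 nt, was at 12.2 and 11.1 TPM. Their expected counts were nearly equal, 480 and 545 for Hdac1-206 against 481 and 574 for Hdac1-201. Of the bases of Hdac1-206, 32.3% lay outside coding exons.

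In Brd2 the level was spread over many models. The leading one, Brd2-207, is of the nonsense_mediated_decay class and held 16.3% and 14.2% of TPM. Brd2-204 and Brd2-215, both retained_intron, were next by mean level, with 37.7 and 24.1 TPM and with 36.2 and 23.5 TPM. Brd2-217, of the same class, was listed at 0 in replicate 1 and at 28.9 TPM in replicate 2, so the split between these models was not stable even though their sum was. In Jmjd1c the 7 retained-intron models together held more than the coding models Jmjd1c-206 and Jmjd1c-211, which had 17.8 and 17.7 TPM and 23.8 and 13.4 TPM. Jmjd1c-202 had 18.0 and 3.93 TPM in the alignment-based tables, and 12.5 and 14.0 TPM in the FASTQ-derived ones.

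In Tet2, retained-intron models held 49.6% and 42.2%. Tet2-208, a model of 3852 nt with 96.1% of its bases outside coding exons, was at 19.2 and 15.2 TPM on 1503 and 1574 expected counts. The processed transcript Tet2-202, of only 484 nt, was at 20.05 and 14.97 TPM on 120 and 109 counts. The coding model Tet2-201, of 9179 nt, had 4879 and 4868 counts but 25.3 and 19.0 TPM. Tet3 was unlike Tet2: its retained-intron share was 12.5% and 7.97%, and the coding model Tet3-202 alone held 59.7% and 61.1%.

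The 10 genes with no retained-intron model were Kdm6b, Kdm4a, Kdm4b, Kdm4c, Kdm7a, Ezh1, Kmt2a, Kmt2d, Brd3 and Smarca4. Kdm6b was the highest of these. Its coding model Kdm6b-201 held 72.9% and 76.6% of TPM, and the processed transcript Kdm6b-202, of 743 nt, held the rest, with 31.0 and 21.4 TPM. A share of 0 in these genes is a property of the annotation and says nothing of intron reads. Of the genes with such a model, 3 had under 10% in both replicates: Kdm3b, Hdac2 and Arid1a. The share could differ widely between replicates in a single gene: Ezh2 had 55.1% in replicate 1 and 20.3% in replicate 2.

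By role, the retained-intron share was largest for the BET readers, at 61.2% ± 1.15, where Brd2 supplied nearly all of the level. PRC2 followed with 41.0% ± 3.88, then the deacetylases with Ncor1 at 39.9% ± 0.76 and the TET enzymes at 32.8% ± 4.35. Demethylases had 28.2% ± 3.76, acetyltransferases 26.5% ± 0.50, remodelling subunits 23.1% ± 7.39 and the other methyltransferases 20.2% ± 0.43. Below the BET readers, the deacetylases with Ncor1 lay above the TET enzymes, and the TET enzymes above the demethylases, by more than either SD. The other neighbouring groups were within the larger SD of each other. This order depends on which genes have such a model annotated, since the others add to the total only. All deacetylases, Ncor1 and both TET enzymes have one. Among the demethylases Kdm6b, at 114 and 91.4 TPM, Kdm4a, Kdm4b, Kdm4c and Kdm7a have none, which lowers the share of that group.

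For 34 of the 42 genes the model with the most TPM was a coding one, against 84.3% of detected protein-coding genes. Retained-intron models led in 6 genes: Hdac1, Jmjd1c, Kdm1a, Ezh2, Ehmt1 and Hdac7. A processed transcript led in Kdm4a and Brd2-207 led in Brd2. The leading model held over 50% of the gene in both replicates in 15 genes. It was the same model in the FASTQ-derived tables for 23 of the 42. The chromatin genes had a median of 8.5 models, 23 exons and a span of 65965 bp, against 6 models, 10 exons and 25564 bp for detected protein-coding genes.

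Counting only coding models changed the order of the genes. Chd4 came first with 94.9 and 93.1 TPM in coding models, followed by Kdm6b with 83.1 and 69.9 TPM and Ncor1 with 64.9 and 58.5 TPM. Brd2 moved from rank 1 to 7, with 40.4 and 35.9 TPM. Hdac1 moved from rank 8 to 20, with 12.2 and 11.1 TPM, and Eed from rank 21 to 32. Kdm1a moved from rank 31 to 37. Of the 10 highest genes, 9 stayed among the 10 highest, and Spearman's rho between both orders was 0.91 over the 42 genes, which share libraries and reads. Chd4, Kdm6b, Ncor1 and Dot1l also led the order by coding models in the FASTQ-derived tables.

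**Figure D3:**
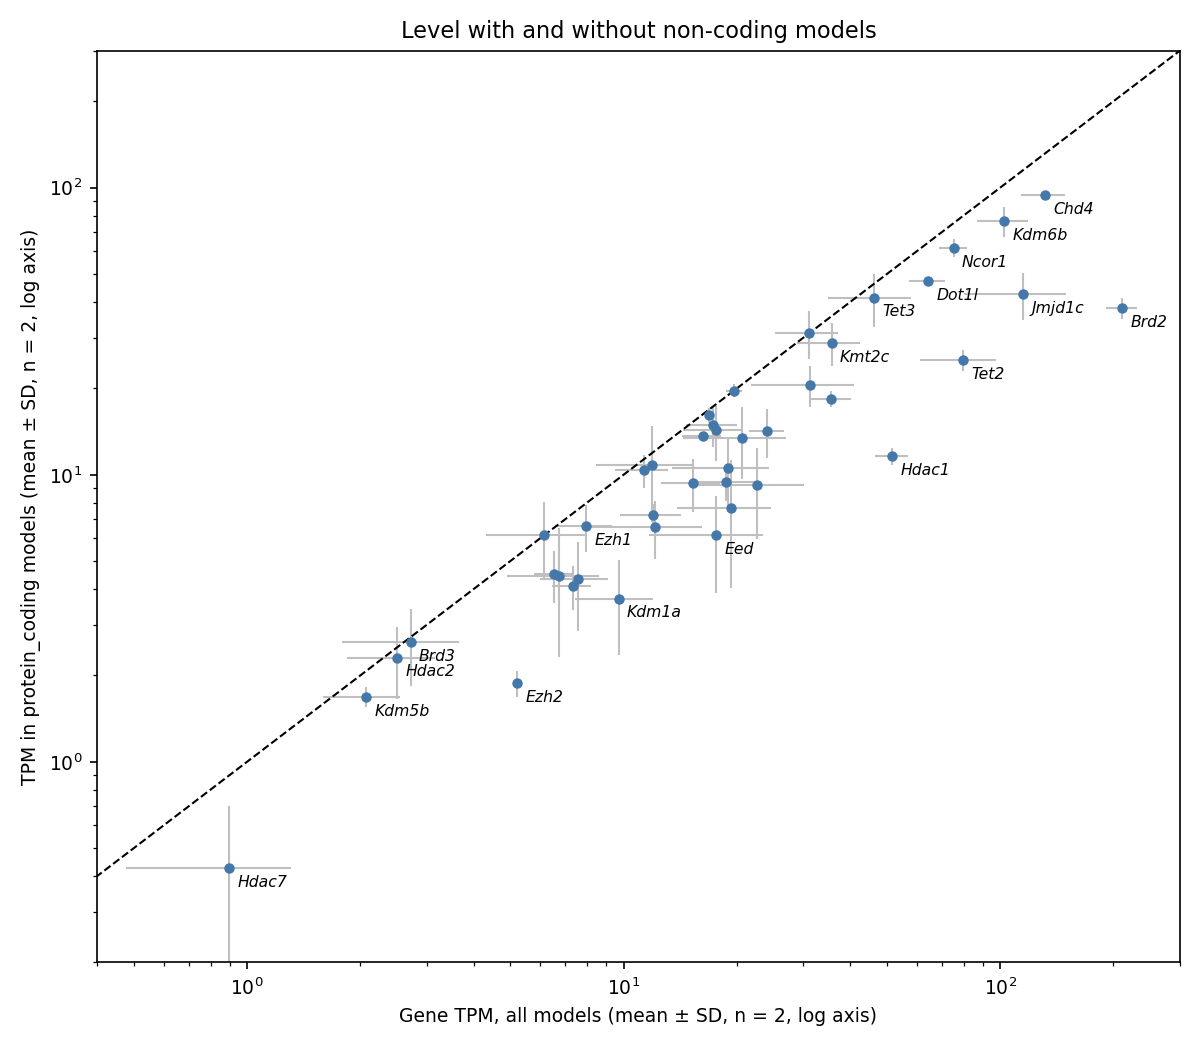
TPM in coding models against TPM in all models for each chromatin gene (log axes, points are means and bars are SD over 2 replicates); the dashed line marks equal values. Chd4, Kdm6b and Ncor1 lie close to the line, and Brd2, Hdac1 and Tet2 lie far below it.

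Some related enzymes differed many-fold and others hardly. As ratios of TPM + 1, 4 of 12 pairs of close relatives differed by more than 4-fold and 7 by less than 2-fold over all models. In coding models 1 differed by more than 4-fold on that scale. Adding 1 narrows pairs with a low partner, so this count of 1 does not hold for plain TPM. In coding models Hdac1 had 12.2 and 11.1 TPM against 2.76 and 1.85 TPM for Hdac2. Kdm5a had 11.5 and 6.91 TPM there against 1.78 and 1.59 TPM for Kdm5b. Of the 12 pairs, 11 differed by more than the spread between replicates, by the 2 SD rule above and on the log2(TPM + 1) scale. With 2 replicates small gaps can meet that rule, such as Kdm3a over Kdm3b at 0.08 ± 0.01. The BET readers differed most: Brd2 exceeded Brd3 by 5.85 ± 0.23, which is 57.7-fold. Hdac1 exceeded Hdac2 by 3.92 ± 0.13, or 15.1-fold. These folds and those that follow are of TPM + 1 and are smaller than those of plain TPM. Both gaps shrank with coding models only, to 3.45 ± 0.20 (10.9-fold) for Brd2 over Brd3 and to 1.95 ± 0.19 (3.86-fold) for Hdac1 over Hdac2. The direction held in both replicates in each case. Kdm5a exceeded Kdm5b by 2.92 ± 0.24 over all models and 1.89 ± 0.39 over coding ones. Kdm2a exceeded Kdm2b by 2.10 ± 0.08 and 1.89 ± 0.32.

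For 3 pairs the direction depended on which models were counted, and for some also on the table. Tet2 exceeded Tet3 by 0.77 ± 0.02 over all models, while in coding models it was lower, at -0.69 ± 0.18. Tet3 was then higher in both replicates, with 47.6 and 35.2 TPM in coding models against 26.5 and 23.6 TPM for Tet2. In the coding models of the FASTQ-derived tables the replicates disagreed, at -0.64 and 0.12. Kmt2c exceeded Kmt2d by 0.19 ± 0.001 over all models and was lower by coding models, at -0.11 ± 0.03. In FASTQ-derived coding models the replicates disagreed for this pair too, at 0.08 and -0.20. Kdm3a exceeded Kdm3b by 0.08 ± 0.01 over all models and was lower by coding models, at -0.54 ± 0.11. By FASTQ-derived TPM, Kdm3a was already lower over all models, at -0.63 and -0.27.

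Ezh1 exceeded Ezh2 by 0.52 ± 0.24 over all models and by 1.39 ± 0.33 over coding models, where Ezh1 had 7.47 and 5.75 TPM and Ezh2 had 1.74 and 2.02 TPM. Over all models in the FASTQ-derived tables the gap was 0.11 ± 0.13, within the spread. Ehmt1 was below Ehmt2 by both measures, at -0.67 ± 0.05 and -1.38 ± 0.39. Hdac4 was below Hdac5 at -0.74 ± 0.11, and in coding models at -0.53 ± 0.29, which is within the spread. Kdm4a exceeded Kdm4b by 1.20 ± 0.13 and by 0.55 ± 0.10 in coding models. Crebbp and Ep300 did not differ beyond the spread over all models, at -0.10 ± 0.19, while in coding models Crebbp was above Ep300 by 0.48 ± 0.15. By FASTQ-derived TPM, Crebbp was above Ep300 over all models too, by 0.33 ± 0.13, which is beyond the spread. By FASTQ-derived TPM, 7 of the 12 pairs differed beyond the spread.

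**Figure D4:**
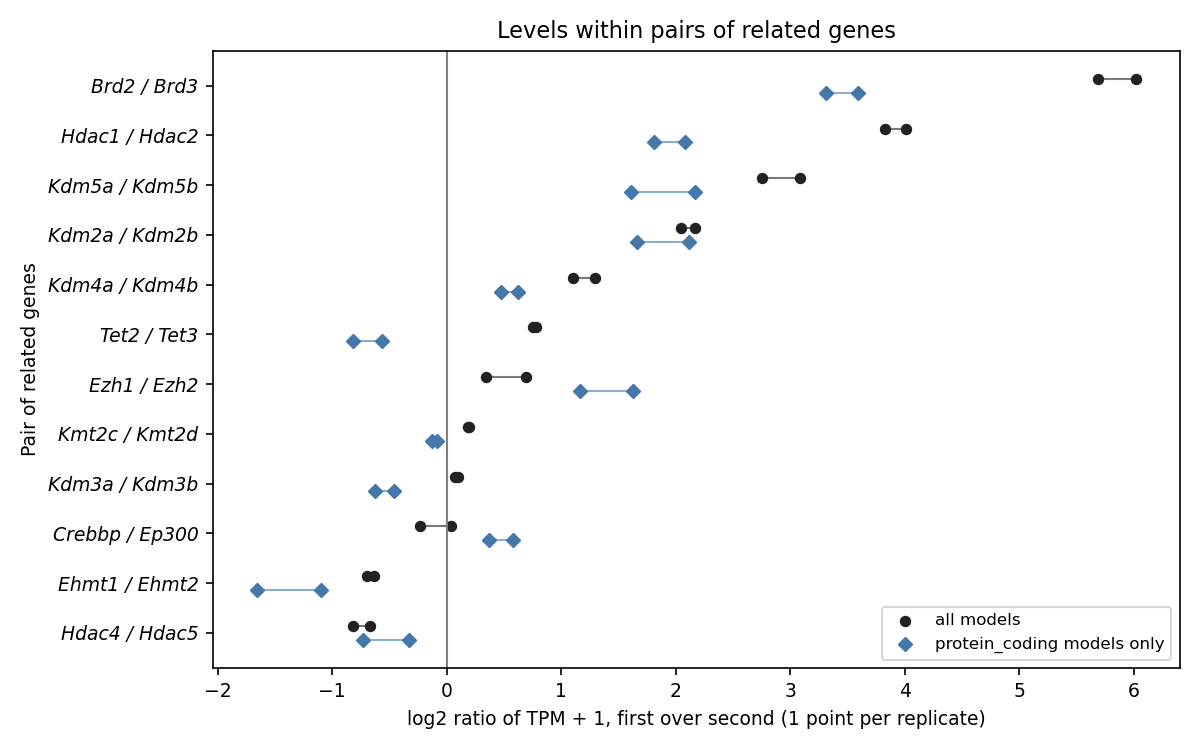
log2 ratio of TPM + 1 within 12 pairs of related genes, first gene over second, with 1 point per replicate; black circles count all models and blue diamonds protein_coding models only. The diamonds lie left of zero for Tet2/Tet3, Kmt2c/Kmt2d and Kdm3a/Kdm3b, where the circles lie right of it.

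Between the replicates, most of the chromatin genes were slightly higher in replicate 2 by scaled counts, and 1 passed 1.5-fold. On counts scaled by library (TMM-scaled CPM), the median log2 ratio of replicate 2 over replicate 1 was 0.15 for the chromatin genes and 0.02 for the 11348 protein-coding genes whose expected counts averaged 10 or more. The ratio was below 0 for 12 of the 42, against 47.8% of all those genes, and above 0 for 30. It passed 1.5-fold for 1 gene, Dot1l, at 0.63 from 4792 and 6906 expected counts, against 12.1% of all those genes in either direction, 5.51% upwards like Dot1l and 6.58% downwards. That background holds many genes of low counts: at a mean of 100 counts or more it was 4.92%, with 1 of 41 chromatin genes past the line. A count of 1 is too small to set the chromatin genes apart from that share. Chd4 came next at 0.55 from 12081 and 16576 counts, just inside the 1.5-fold line. Kdm1a was lowest at -0.32 from 389 and 291 counts. By FASTQ-derived counts, 0 of the 42 passed 1.5-fold, Dot1l included. Most of the added counts of Dot1l were in the coding model Dot1l-201, with 3992 and 5782 counts, and the retained-intron model Dot1l-207 had 59.8 and 228 counts. RNA input differed between these libraries, and its part in the ratios was not tested.

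**Figure D5:**
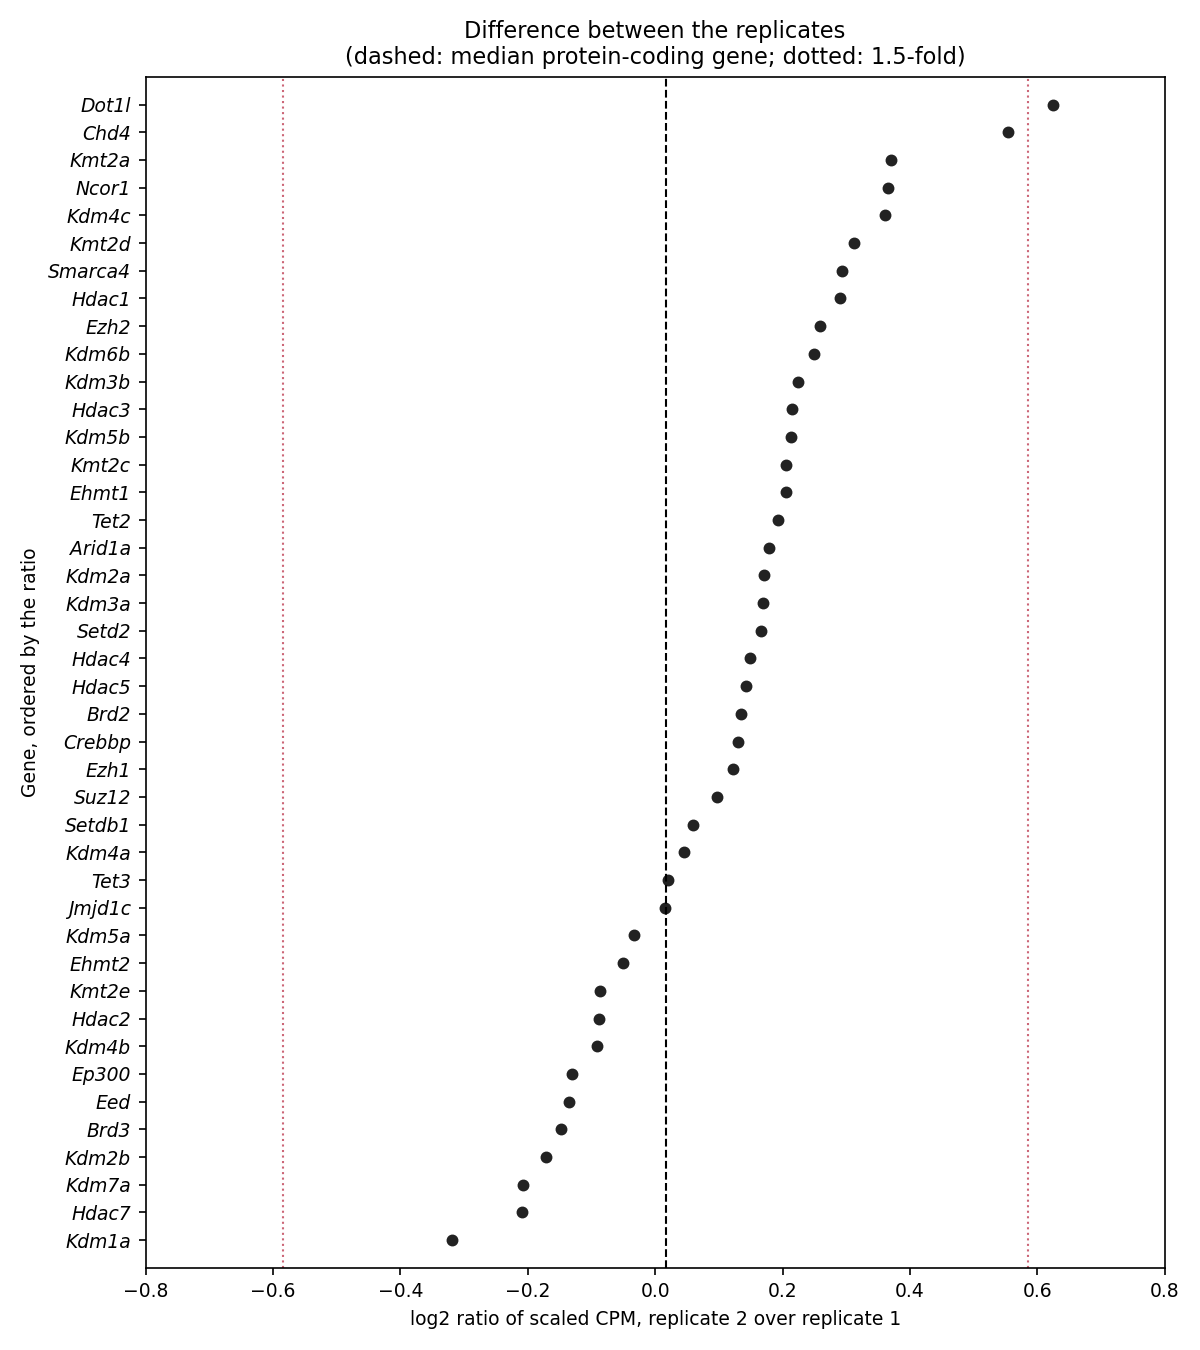
log2 ratio of TMM-scaled CPM, replicate 2 over replicate 1, for each chromatin gene; the dashed line is the median protein-coding gene (0.02) and the dotted lines mark 1.5-fold. Dot1l at 0.63 is the only point outside the dotted lines, and Kdm1a at -0.32 is the lowest.

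Depth was ample for most of these genes. Of the 42, 41 had more than 100 expected counts in both replicates. The authors' credibility interval, which covers counting and read assignment within 1 library, spanned a median of 19.0% of the level in both. These intervals are centred on another estimate than the TPM printed here, which lay outside them for 9 of the 42 in replicate 1 and for 5 in replicate 2, so their width is not the error of that TPM. The interval was narrowest for Tet3, at 4.69% and 4.97%, and widest in Kdm4b in replicate 1, followed by Hdac7 at 89.2% and 124%. The FASTQ-derived levels were lower than the alignment-based ones for protein-coding genes in general, with a median log2 ratio of -0.68 in replicate 1 and -0.39 in replicate 2. Relative to that shift, all 42 were within 2-fold. Spearman's rho between both kinds of table was 0.97 for the level over the 42 genes and 0.85 for the retained-intron share over the 32 genes with such a model.

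Some of the genes share exon bases with a gene on the opposite strand, and the strand setting of the counting is not given in the sources used here, so reads of both cannot be told apart there. Kdm3b shared 24.6% of its exon bases with Gm26538, which had 0.76 and 0.19 TPM, and Hdac4 shared 22.4% with Gm26720, which had 0.54 and 0 TPM. These partners were far lower than the chromatin gene in both replicates. Kmt2e shared 9.31% with Srpk2, a kinase gene at 25.8 and 17.6 TPM, which is as high as Kmt2e itself. Brd2 shared 4.60% with H2-DMa, at 17.4 and 7.76 TPM, and Kdm6b shared 4.11% with its antisense RNA Kdm6bos, at 17.2 and 9.29 TPM.

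The pathway beyond these genes was described with a further 87 chromatin genes, all found in the tables. Of these, 80 were detected, and their median was 11.5 and 8.54 TPM, below that of the 42 in both replicates. The highest was Chd2, a remodeller of the CHD family, with 70.1 and 50.8 TPM. Dnmt3a, a de novo DNA methyltransferase, had 69.5 and 49.5 TPM, and Setd5, a SET-domain protein, had 66.2 and 51.7 TPM, of which 65.1% and 56.9% was in retained-intron models. Nsd3, an H3K36 methyltransferase, had 58.2 and 40.2 TPM.

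The 7 not detected included germline or tissue-restricted relatives of detected genes. The testis BET gene Brdt was at 0.14 and 0.05 TPM, and Tet1, the other TET enzyme, at 0.04 and 0.13 TPM. Kdm4d was at 0.07 TPM in replicate 1 and listed at 0 in replicate 2, on 3 and 0 counts. Dnmt3b was at 0.83 and 0.47 TPM, Hdac11 at 0.28 and 0.22 TPM, and Kdm8 at 0.13 and 0.08 TPM. The last was Kdm5d, a close copy of Kdm5c, with 0.01 TPM and 0 in the alignment-based tables but 2.07 and 1.67 TPM in the FASTQ-derived ones. Reads of such a pair can be assigned to either gene.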

How the data were processed

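Nucleoplasmic total RNA of 2 replicates of 1 group was described. Genome build mm10 is named in the labels and GENCODE M21 in the notes deposited with the tables. The sources used here give no aligner, quantifier or strand setting. The file headers show that the authors' alignment-based gene and transcript tables hold deposited expected counts, TPM, FPKM and credibility bounds, and their FASTQ-derived transcript tables hold estimated counts and TPM.

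Genes were matched by name, and models were summed by annotated class. Replicate ratios used expected counts rounded to whole numbers, TMM scaling and a prior count of 2 in edgeR 4.0.16 (R 4.3.3), with a mean count of at least 10; DESeq2 1.42.0 size factors were an alternative. The ratio code was tested on simulated data. Tables were handled in pandas 2.3.3 and numpy 2.4.6. The pseudocount on TPM was 1. With 1 group there was no contrast, so no test was run and every value is a description.

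The 42 genes, the lists and the pairs were chosen with earlier results of these data known. Values in each replicate were given for the 10 highest genes, those not detected, members of fixed pairs, those over 50% retained-intron in both replicates and those past 1.5-fold between replicates. For the further 87 chromatin genes they were given for the 5 highest, of which 1 is not reported here, and those not detected. Other genes of the 42 were named by role after their values were seen.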

Additional observations from a re-analysis of the deposited data

How the results depend on the processing

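Settings are compared with the values reported above. The median level of the 42 genes, 17.7 TPM, became 10.8 with FASTQ-derived TPM, 66.2 after rescaling to protein-coding genes and 22.9 as deposited FPKM, which are different scales. The retained-intron share, 33.4%, became 10.9% by expected counts, 39.9% with FASTQ-derived TPM, 40.1% over genes with such a model and 43.3% when all models that are not coding were counted. Chosen after seeing the data, it was 27.4% for models with 20% or more of their bases outside coding exons, 28.1% without Brd2 and 29.8% as the median over genes with such a model. The median replicate ratio, 0.15, turned to -0.36 as a ratio of TPM + 1, where all protein-coding genes had -0.41. Pairs beyond the spread fell from 11 to 7 with FASTQ-derived TPM and stayed at 11 with a pseudocount of 0.1. That pseudocount widened the ratios of pairs with a low partner. Brd2/Brd3 moved from 5.85 to 6.26 and Hdac1/Hdac2 from 3.92 to 4.33. Kdm5a/Kdm5b moved from 2.92 to 3.37 and Kdm2a/Kdm2b from 2.10 to 2.23. Kmt2c/Kmt2d turned to -0.11, Tet2/Tet3 to -0.69 and Kdm3a/Kdm3b to -0.54 in coding models. With FASTQ-derived TPM Kdm3a/Kdm3b turned to -0.45. In FASTQ-derived coding models, a setting chosen after seeing the data, these pairs were at -0.062, -0.26 and -0.61, and the replicates of the first and the second disagreed in sign. The cause of these changes was not tested. No paired analysis was possible because there was 1 group and no contrast. The 2 replicates share a donor identifier, so their spread may understate that between animals, and short models on few counts limit the shares of low genes.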
